A study of Danio rerio with 4 samples.

Results

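Cardiac macrophages of 18-month-old zebrafish were described from 135 cell barcodes, 57 of an injured and 78 of an uninjured heart library. The members were selected on measured transcripts: a barcode was taken as a macrophage if it had at least 200 detected genes, at most 25% of its UMIs (unique molecular identifiers, each standing for 1 captured transcript) from mitochondrial genes, under 3% from the cardiomyocyte gene myl7, and at least 5 UMIs of c1qa, c1qb, c1qc and grn1 together. The gene and mitochondrial limits alone kept 1392 of 3127 deposited barcodes of the injured library and 2010 of 5826 of the uninjured library, so that the macrophages were 135 of 3402 kept barcodes at 18 months and of 5470 in the whole series of 4 libraries. The same rule found 3 barcodes among 1119 in the library of 6-month pdgfrb mutants and 1 among 949 in that of 6-month wildtype fish, too few to describe.

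Both 18-month groups were AB fish with the reporters pdgfrb:EGFP and cxcl12b:Citrine, and only heart ventricles were used. In the injured group the apex of the ventricle had been cut off 7 days before the heart was collected, and in the uninjured group it had not. Ventricles were digested with collagenase and elastase, cells carrying pdgfrb:EGFP were sorted, and 1 droplet library of 3' transcript ends was made per group. The number of fish behind each library is not given in the sources used here.

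Macrophages take up dead cells, debris and red blood cells, break them down in lysosomes, present peptides on MHC class II molecules and release cytokines and chemokines that call in other leukocytes. C1q, made of the products of c1qa, c1qb and c1qc, starts the classical complement pathway and is made largely by macrophages, and progranulin, the product of grn1, is a secreted and lysosomal protein. In regenerating zebrafish hearts macrophages are known to clear the wound, to regulate neutrophils and to act on scar, vessels and cardiomyocyte proliferation.

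The macrophages held 418419 UMIs in the injured and 595446 in the uninjured library. A macrophage had a median of 6494 UMIs (517 to 26410) in the injured and 6388.5 (619 to 33676) in the uninjured library, with a median of 1587 and 1448.5 detected genes. The other kept barcodes were shallower, with medians of 3600 UMIs in the injured and 3236.5 in the uninjured library. The 2 libraries shared 4 deposited barcode sequences, 2 kept ones and none among macrophages. With 1 library per group no difference given here has a replicate check, cells of a library are not replicates, and no p-value is given. All 95% intervals (exact binomial for shares and for ratios of 2 counts, Poisson for single counts) and the limits set by a count of 0 cover counting error only.

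Macrophages made up 4.09% of kept barcodes in the injured library (3.12 to 5.27%) and 3.88% in the uninjured library (3.08 to 4.82%). Among kept barcodes under 3% myl7 the shares were 7.40% (5.65 to 9.48%, 57 of 770) in the injured and 8.12% (6.47 to 10.0%, 78 of 961) in the uninjured library. The intervals overlapped on either count, so no difference in macrophage share was detectable at this number of cells. The sort for EGFP sets such shares in an unknown way, and they are not shares of the heart.

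The members were set apart from most other barcodes by the rule. A member held a median of 70 UMIs of the 4 chosen genes (5 to 1150) in the injured library and 54 (6 to 413) in the uninjured library, while 686 of 770 injured and 855 of 961 uninjured barcodes under 3% myl7 held none. Just inside the threshold, at 5 to 7 UMIs, lay 8 injured and 3 uninjured barcodes. Just outside it, at 2 to 4 UMIs, lay 8 injured and 9 uninjured barcodes, of which 5 and 4 had UMIs of at least 3 of 12 other macrophage markers. Of those just inside, 5 of 8 injured and 1 of 3 uninjured barcodes did. Among the members, 9 injured and 4 uninjured barcodes had under 5 UMIs of the C1q genes and passed through grn1. Only 4 of these 9 and 2 of these 4 had at least 3 of the 12 other markers. Of the members with 5 or more C1q UMIs, 46 of 48 injured and 72 of 74 uninjured ones did. No grn1 UMI was found in 4 injured and 11 uninjured members.

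Markers that the rule did not use were present in the members. UMIs of at least 3 of 12 other macrophage markers were found in 50 of 57 injured and 74 of 78 uninjured members, with a median of 8 of 12 in either library, against a median of 0 in the other kept barcodes. The scavenger receptor gene marco (ENSDARG00000059294) had 456 UMIs in 41 injured members and 536 UMIs in 56 uninjured members. The perforin-like gene mpeg1.1 had 170 UMIs in 38 injured members and 191 in 52 uninjured members, and mfap4 had 222 UMIs in 32 and 285 in 46. The pan-leukocyte phosphatase gene ptprc had 219 UMIs in each library, in 44 injured and 64 uninjured members. The chemokine gene ccl34a.4 had 2283 UMIs in 40 injured members and 2651 UMIs in 64 uninjured members. Not every classical marker was well captured, since csf1ra, the receptor gene for colony-stimulating factor 1, had 12 UMIs in the injured and 32 in the uninjured members, and mpeg1.2 had 0 and 6.

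Most defining genes of other leukocytes and of vessel cells were at or near 0, with exceptions. The neutrophil granule gene mpx, the B cell gene cd79a and the endothelial genes kdrl and pecam1 had no UMI in any member, the neutrophil lysozyme gene lyz had 3 UMIs in the injured and 0 in the uninjured members, and cdh5 had 1 and 0. Of the exceptions, the endothelial receptor gene tie1 had 21 UMIs in 15 injured and 8 UMIs in 7 uninjured members, a log2 ratio of 1.90 (0.67 to 3.29) that passed the 1.5-fold rule used for the comparison. In the other kept barcodes under 3% myl7 the ratio of tie1 was 0.15. The endocardial gene spock3 had 28 UMIs in 3 injured and 27 UMIs in 4 uninjured members, with 26 and 21 of them in a single member. The neutrophil gene npsn had 11 UMIs in 1 injured member and none in uninjured ones. The dendritic cell gene xcr1a.1 was found in 1 of 48 injured and 13 of 74 uninjured members with at least 5 C1q UMIs. Among members with fewer C1q UMIs it was found in 1 of 9 and 0 of 4. The log2 ratio of xcr1a.1 was -1.49 and did not pass that rule, but was -3.30 and past it without the top member of each library. Dendritic cell markers summed to 373 CPM in injured and 405 CPM in uninjured members. Whether dendritic cells are among the members was not tested. The wider lists of neutrophil, T and NK, and epicardial genes hold genes found in many members (ncf1 and dusp2 among them) or in many other barcodes (srgn and krt8 among them). Their sums therefore do not single out a cell type, and the part of other cells in them was not tested. Of 4 measured epicardial genes 2 were lower (50%, beside 6.25% of all genes). These were krt91 (log2 ratio -4.85) and krt15 (-2.66, but 2.53 with members taken from 3 UMIs of the rule's genes). In the other kept barcodes under 3% myl7 their ratios were -2.86 and -0.66. Of the T and NK list 109 of 245 injured UMIs lay in a single member, against 35 of 328 uninjured UMIs. Its gene ccl38.6 had 62 UMIs in a single injured member. The genes cd8a and cd8b had 3 and 4 UMIs, each in a single injured member. Whether a T or NK cell lies behind these counts was not tested. Ranked by their level in macrophages over the other kept barcodes, in the library where that ratio was lower, the 10 leading genes were c1qb, si:ch211-194m7.3, marco, c1qa, grn1, si:dkey-5n18.1, mfap4, si:ch211-147m6.1, c1qc and grn2. The ratio was at least 935-fold in each of them in either library, a lower bound where the other barcodes held no more than 3 UMIs, and 4 of the 10 are the genes of the rule.

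**Figure D1:**
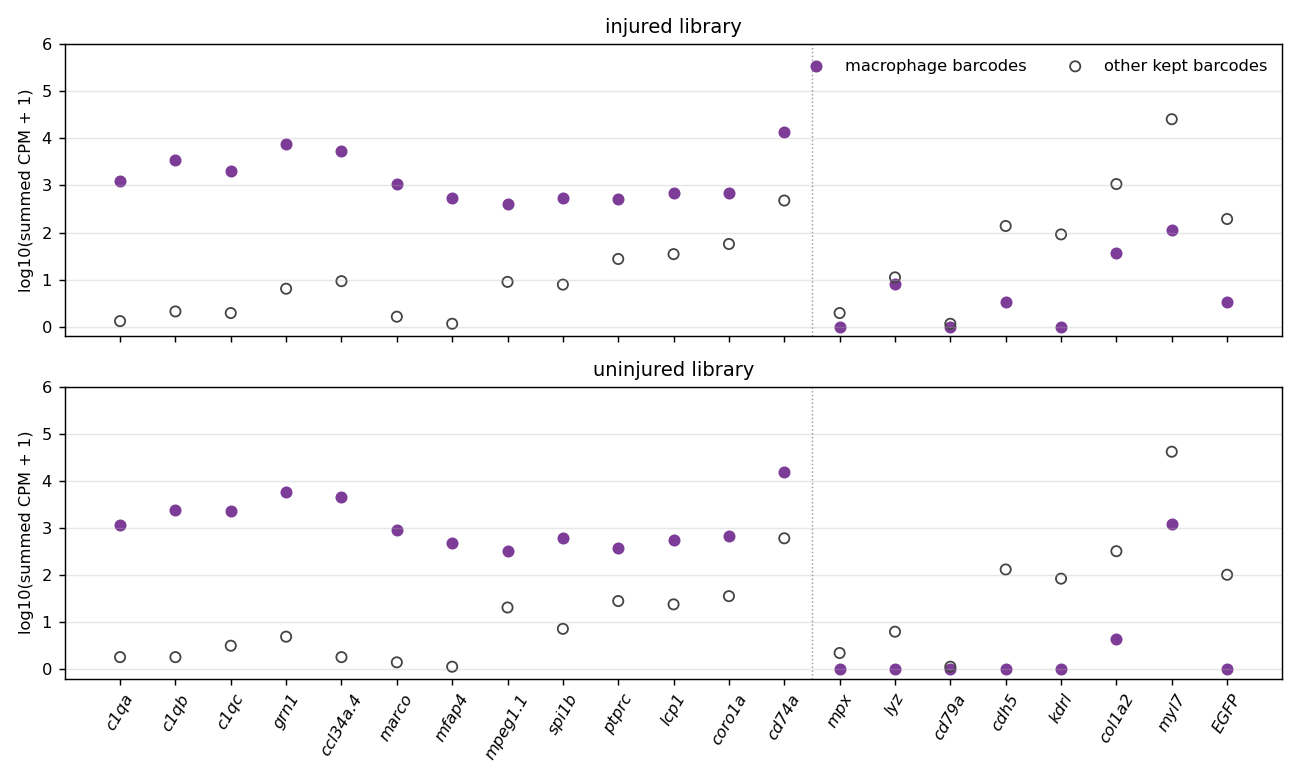
Summed level (log10 of CPM plus 1) of macrophage genes, left of the dotted line, and of genes of other cells and the EGFP reporter, right of it, in the injured library (top) and the uninjured library (bottom). Filled circles are the macrophage barcodes and open circles the other kept barcodes. The genes c1qa, c1qb, c1qc and grn1 chose the macrophages, which also hold marco, mfap4 and mpeg1.1, with mpx, cd79a and kdrl at 0.

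Transcripts of the reporter that the sort was set on were rare in the macrophages. EGFP had 1 UMI in 1 of 57 injured members and 0 UMIs in 78 uninjured members, which allows a share of up to 3.85% of cells with an EGFP UMI. That limit does not bound the share of cells that express EGFP below what droplets capture. Over all kept barcodes 25.5% of the injured and 17.8% of the uninjured held EGFP, and in cardiomyocyte barcodes with at least 3% myl7, which should lack it, 0.965% and 1.14% did, at median depths of 3077.5 and 2735 UMIs. The receptor gene pdgfrb itself had 5 UMIs in each library, in 4 injured and 5 uninjured members. These were 7.02% of injured and 6.41% of uninjured members, beside 11.8% and 6.32% of all kept barcodes, at unequal depths. Of the cardiomyocyte barcodes 0% and 0.0953% held pdgfrb. The share of members with Citrine was near 0, as for EGFP, with no UMI in the injured and 1 in the uninjured members, and cxcl12b had none in either. EGFP and Citrine are alike in sequence, so the split of counts between them is uncertain.

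The members differed among themselves in depth and in what they held most of. The 5 injured and 9 uninjured members with over 15000 UMIs had median levels of cd74a, the gene of the MHC class II invariant chain, of 6237 and 2409 CPM (counts relative to all UMIs of the cell or, for sums, of the library's macrophages). The shallower members had 14293 CPM in the injured and 20172 CPM in the uninjured library, so the deep members were low in both. For grn1 the order was the opposite, with medians of 7130 CPM in injured and 9820 CPM in uninjured deep members against 2411 and 2241 CPM in shallower ones. Of the deep members all 5 injured and all 9 uninjured held at least 3 of the 12 other markers. What sets the deep members apart was not tested. The progranulin copy grn2 was found in 12 injured and 14 uninjured members alone, and 51.6% of its injured and 41.6% of its uninjured UMIs came from a single member.

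Injured and uninjured macrophages were then compared over 3664 genes with at least 20 UMIs in both libraries together. UMIs were summed over the members of a library and scaled to their total, and a gene was counted as higher or lower where its ratio passed 1.5-fold and its counting interval excluded no change. By that rule 12.8% of genes differed between the 2 libraries, 6.52% (239 genes) higher and 6.25% (229 genes) lower in injured macrophages, and the median log2 ratio was 0.02. These counts describe 2 libraries and not 2 conditions. Of the genes counted, 11 higher and 9 lower ones had UMIs in under 5 members. Of 22 measured genes of the macrophage marker list 1 was higher (havcr1) and 1 lower (irf8), and the median was 0.15. The list includes grn1, a gene that chose the members, so its count and median are given as a description only. The genes that chose the members did not pass the 1.5-fold rule. Their log2 ratios were 0.12 for c1qa, 0.58 for c1qb, -0.14 for c1qc and 0.39 for grn1, again given as a description.

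Inflammatory cytokines and chemokines were mostly lower in injured macrophages. Of 26 measured genes of this list 14 were lower and 6 higher, 53.8% and 23.1% of the list beside 6.25% and 6.52% of all genes, and the median log2 ratio was -0.89. Of the 6 higher ones 4 came from under 5 members, and of the 14 lower ones 2 did. The interleukin 1 gene il1b (ENSDARG00000098700) had 76 UMIs (182 CPM) in 14 injured members, against 371 UMIs (623 CPM) in 44 uninjured members. It was 3.43-fold lower in injured macrophages (log2 ratio -1.78, -2.15 to -1.42). The highest member held 3023 CPM in the injured and 7224 CPM in the uninjured library, and the median member held 0 and 80.7 CPM, so the ranges overlapped while fewer injured members held the transcript. The tumour necrosis factor family gene tnfb (ENSDARG00000013598) had 67 UMIs (160 CPM) in 16 injured members and 326 UMIs (547 CPM) in 42 uninjured members, with a log2 ratio of -1.77 (-2.18 to -1.39). The neutrophil chemoattractant gene cxcl8a (ENSDARG00000104795) had 71 UMIs (170 CPM) in 6 injured members and 615 UMIs (1033 CPM) in 32 uninjured members, with a log2 ratio of -2.61 (-2.98 to -2.25). The other tumour necrosis factor gene, tnfa, had 23 UMIs in 3 injured and 43 UMIs in 20 uninjured members, and its log2 ratio of -0.39 did not pass the rule (-1.19 to 0.37). Of the 23 injured UMIs 21 lay in a single member, and without the top member of each library the ratio was -3.54 and past the rule. The anti-inflammatory cytokine gene il10 had no UMI in either library.

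The cells that held il1b, tnfb and cxcl8a overlapped. At least 2 of the 3 transcripts were found in 9 of 57 injured members (15.8%, 7.48 to 27.9%) and in 41 of 78 uninjured members (52.6%, 40.9 to 64.0%). At least 1 was found in 23 injured members (40.4%) and in 59 uninjured members (75.6%), but in only 3 of 622 injured (0.482%) and 3 of 1049 uninjured (0.286%) cardiomyocyte barcodes. In the other kept barcodes under 3% myl7 cxcl8a was found in 9.54% of injured and 10.3% of uninjured ones. Among members the shares were 10.5% and 41.0%. tnfb had 229 UMIs in 38 injured and 336 UMIs in 71 uninjured barcodes there. il1b was rare there, with UMIs in 2 injured and 4 uninjured barcodes. With every member thinned to 1000 UMIs, which left out 4 injured and 2 uninjured members, at least 2 were found in 1 of 53 injured members (1.89%) and in 21 of 76 uninjured members (27.6%). These 3 genes were grouped after their values were seen.

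**Figure D2:**
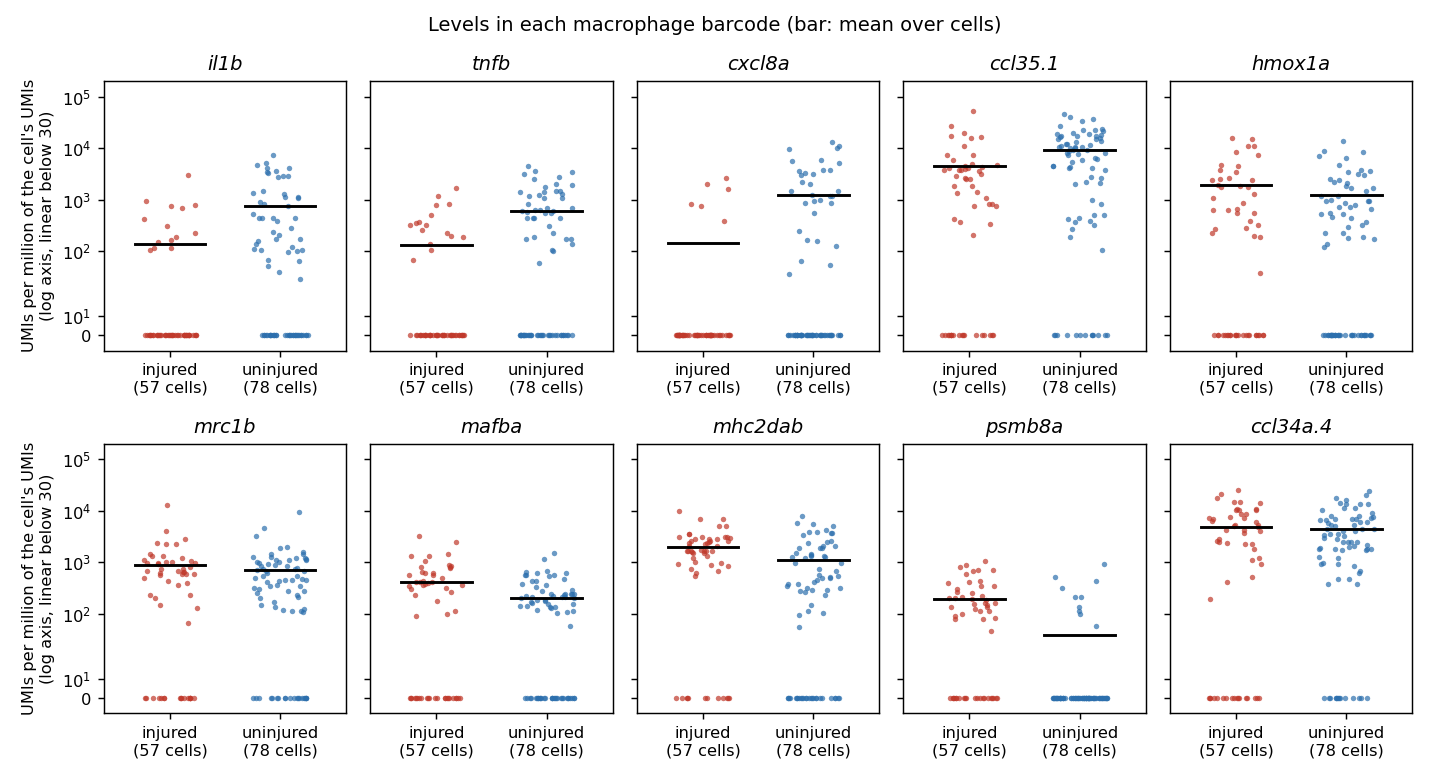
Level of 10 genes in each macrophage barcode (CPM of the cell, on a log axis that is linear below 30), with injured macrophages in red on the left and uninjured ones in blue on the right of each panel. Bars are means over cells. For il1b, tnfb and cxcl8a, 14, 16 and 6 of 57 injured members lie above 0, against 44, 42 and 32 of 78 uninjured members.

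The CC chemokine gene ccl35.1 (ENSDARG00000103466), one of the most abundant transcripts of the list, had 1985 UMIs (4744 CPM) in 39 injured members and 4927 UMIs (8274 CPM) in 65 uninjured members. It was 1.74-fold lower in injured macrophages (log2 ratio -0.80, -0.88 to -0.73). Its median was 1404 CPM per injured member and 6333 CPM per uninjured member. The CC chemokine gene ccl34b.1 had 18 UMIs in 10 injured and 167 UMIs in 37 uninjured members (log2 ratio -2.70, -3.49 to -2.00), ccl38.1 had 5 UMIs in 4 and 48 UMIs in 23 members (-2.75), and the CXC chemokine gene cxcl20 had 25 UMIs in 9 and 96 UMIs in 29 members (-1.43). All 3 were spread over many uninjured members and rarer in injured ones. The chemokine gene ccl34a.4, above ccl35.1 in injured and below it in uninjured macrophages, was at 5456 CPM in injured and 4452 CPM in uninjured macrophages, with a log2 ratio of 0.29 that did not pass the rule.

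Genes of the cxcl11 cluster, ligands of the receptor Cxcr3 that draw macrophages in zebrafish larvae, were lower too but came from few cells. cxcl11.1 had 67 UMIs in 5 injured and 433 UMIs in 9 uninjured members (log2 ratio -2.18), and 60 of the 67 lay in a single member. cxcl11.6, which the gene-name table calls cxcl11.7, had 26 UMIs in 3 injured and 358 UMIs in 18 uninjured members (-3.27). cxcl11.5 had 5 UMIs in 3 injured and 181 UMIs in 11 uninjured members (-4.67, -6.31 to -3.42), and the granulocyte growth factor gene csf3b had 4 UMIs in 2 injured and 116 UMIs in 12 uninjured members (-4.35, -6.25 to -2.95). cxcl11.5, cxcl11.6 and csf3b were among the 12 lowest genes of the whole comparison. Of these, cxcl11.5 and csf3b are not in the cytokine and chemokine list and do not count among its lower genes. Copies as alike as those of the ccl34, ccl38 and cxcl11 clusters can share reads, so the split of counts among them is uncertain. Of the measured Cxcr3 receptor genes cxcr3.2 had 135 UMIs in 39 injured and 209 UMIs in 57 uninjured members, with a log2 ratio of -0.12. cxcr3.3 had 9 UMIs in 4 injured and 26 UMIs in 20 uninjured members, and its log2 ratio of -1.02 (-2.30 to 0.12) did not pass the rule, but was -2.04 and past it without the top member of each library.

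The 6 higher genes of the list included cxcl8b.1, another interleukin-8 type gene, with 98 UMIs in 11 injured and 61 UMIs in 9 uninjured members (log2 ratio 1.19, 0.72 to 1.68). ccl34b.8 had 242 UMIs in 24 injured and 224 UMIs in 34 uninjured members (0.62), and this call was lost under 9 alternative settings. ccl38.6, ccl38a.4 and ccl38a.5 lay in 1 member per library each, and cxcl18b in 1 injured and 2 uninjured members. The remaining lower genes of the list were ccl35.2, ccl39.1, ccl34b.4, il1fma and ccl19a.1. The last of these had no UMI in injured macrophages against 67 UMIs in 3 uninjured members, which is at least 15.7-fold lower, taking 3 UMIs summed over injured members as the floor.

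In the other kept barcodes under 3% myl7 (713 injured and 883 uninjured) some of these transcripts were lower too, by other amounts. The log2 ratio there was -0.62 (-0.87 to -0.37) for tnfb, -0.56 (-0.69 to -0.44) for cxcl8a and -2.25 (-2.41 to -2.10) for ccl35.1. The ratio of ccl35.1 rested on few of these barcodes, with 414 UMIs in 21 injured and 1887 UMIs in 26 uninjured ones. il1b had 7 UMIs in 2 injured and 41 UMIs in 4 uninjured barcodes there, a log2 ratio of -2.62 (-4.02 to -1.44). For il1b the interval overlapped that in macrophages. For tnfb and cxcl8a the interval in macrophages lay wholly below that in the other barcodes, and for ccl35.1 wholly above it.

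Genes that answer to inflammatory signals within the cell moved in both directions. Of 22 measured genes of the oxidative burst, NF-kB and effector list, 4 were lower and 1 higher (18.2% and 4.55%, beside 6.25% and 6.52% of all genes), and the list's median was -0.48. nfkbiab, an inhibitor and target of NF-kB, had 154 UMIs in 31 injured and 448 UMIs in 59 uninjured members (log2 ratio -1.03, -1.31 to -0.76). ncf1, a subunit of the phagocyte NADPH oxidase, had 125 UMIs in 29 injured and 348 UMIs in 52 uninjured members (-0.97, -1.27 to -0.67). The prostaglandin synthase gene ptgs2b (-1.38) and the cytokine feedback gene socs1a (-1.69) were the other lower ones, at 7 and 5 UMIs in injured macrophages. The feedback gene socs3a was the higher one, with 467 UMIs in 37 injured and 396 UMIs in 46 uninjured members (0.75, 0.55 to 0.94). Among 19 measured immune receptor genes 2 were higher (10.5%, beside 6.52%) and none lower: tnfrsf1a, a tumour necrosis factor receptor, with 52 UMIs in the injured and 35 in the uninjured members (1.08), and csf3r with 14 and 7 (1.51).

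Antigen presentation genes were abundant, with 4 of 18 measured genes higher and 3 lower (22.2% and 16.7%, beside 6.52% and 6.25% of all genes) and a median of -0.13. The invariant chain gene cd74a, found in 56 of 57 injured and all 78 uninjured members, had 5683 UMIs (13582 CPM) in injured and 9244 UMIs (15524 CPM) in uninjured macrophages, with a log2 ratio of -0.19. The class II chain gene mhc2a had 1148 and 2219 UMIs in injured and uninjured macrophages (-0.44) and did not pass the rule. A few genes of the MHC differed far more. The class II beta chain gene mhc2dab (ENSDARG00000079105) had 857 UMIs (2048 CPM) in 45 injured members and 546 UMIs (917 CPM) in 52 uninjured members, a log2 ratio of 1.16 (1.0 to 1.32). Its median was 1650 CPM per injured and 365 CPM per uninjured member, and 12 injured and 26 uninjured members had none. Other class II genes went the other way, with log2 ratios of -0.69 for mhc2b (93 UMIs in the injured and 214 in the uninjured members) and -1.25 for the gene that the gene-name table calls mhc2dga (37 and 125 UMIs).

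The immunoproteasome genes, whose products cut peptides for class I presentation, were among the highest of the comparison. psmb8a (ENSDARG00000001303) had 81 UMIs in 36 injured members, against 17 UMIs in 10 uninjured members, 6.78-fold higher in injured macrophages (log2 ratio 2.76, 1.99 to 3.61). psmb12 had 53 UMIs in 33 injured and 11 UMIs in 9 uninjured members (2.78, 1.82 to 3.86), psmb9a had 58 UMIs in 29 and 18 UMIs in 10 members (2.2, 1.41 to 3.05), and psmb13a had 31 UMIs in 20 and 8 UMIs in 7 members (2.46, 1.31 to 3.80). All 4 were among the 12 highest genes. Of the class I genes mhc1uka had 27 UMIs in 17 injured and 10 UMIs in 8 uninjured members (1.94), while mhc1uba had 3 UMIs in 3 injured and 27 UMIs in 19 uninjured members (-2.66, -5.03 to -0.96).

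The same genes of the MHC differed in the other cells of the 2 libraries. In the other kept barcodes under 3% myl7 the log2 ratio was 3.2 (2.70 to 3.73) for psmb8a, 2.81 for psmb9a, 2.78 for psmb12, 2.47 for psmb13a, 1.54 for mhc1uka and -3.11 (-3.96 to -2.36) for mhc1uba, and the intervals of all 6 overlapped those in macrophages. For mhc2dab it was -0.05 (-0.28 to 0.18) there, below the interval in macrophages. In cardiomyocyte barcodes thinned to 1000 UMIs psmb8a was found in 64 of 566 injured (11.3%) and 12 of 909 uninjured ones (1.32%), against 8 of 53 injured (15.1%) and 4 of 76 uninjured macrophages (5.26%).

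Within the uninjured library mhc2dab was more often high, and mhc1uba less often found, in members with a psmb UMI. A UMI of psmb8a, psmb9a, psmb12 or psmb13a was found in 46 of 57 injured and 17 of 78 uninjured members. Of these 17 uninjured members 13 had at least 1000 CPM of mhc2dab and 1 had mhc1uba. Of the other 61 uninjured members 13 had at least 1000 CPM of mhc2dab, 25 had none, and 18 had mhc1uba. The 26 uninjured members with at least 1000 CPM of mhc2dab were thus split evenly. In the injured library 31 of the 46 members with a psmb UMI and 6 of the other 11 had at least 1000 CPM of mhc2dab. There mhc1uba was found in 3 of the 46 and 0 of the 11, unlike in the uninjured library. These 11 were shallow, at a median of 2286 UMIs against 7983 in the 46. Lack of a psmb UMI says little about a single cell, since the 78 uninjured members held 54 such UMIs in all. The median depth was 6190 UMIs in the 17 and 6661 UMIs in the 61. The grouping was chosen after the values were seen. Looked up by symbol, the 4 psmb genes, mhc1uka, mhc1uba and the peptide transporter gene tap2a lie within 8 consecutive protein-coding genes of chromosome 19 in the RefSeq table of GRCz12tu. The gene-name table calls the ID counted here as mhc1uka by another name, mhc1uca, so its place in that span is uncertain. The zebrafish MHC is known for haplotypes that differ in the genes they hold. The fish behind each library are not given, so MHC type and injury cannot be told apart for the 4 psmb genes, mhc1uka and mhc1uba. The gene mhc2dab is not among those named in that span. Its log2 ratio was -0.05 (-0.28 to 0.18) in the other barcodes compared above, unlike in macrophages. Whether MHC type or injury goes with its ratio in macrophages was not tested.

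**Figure D3:**
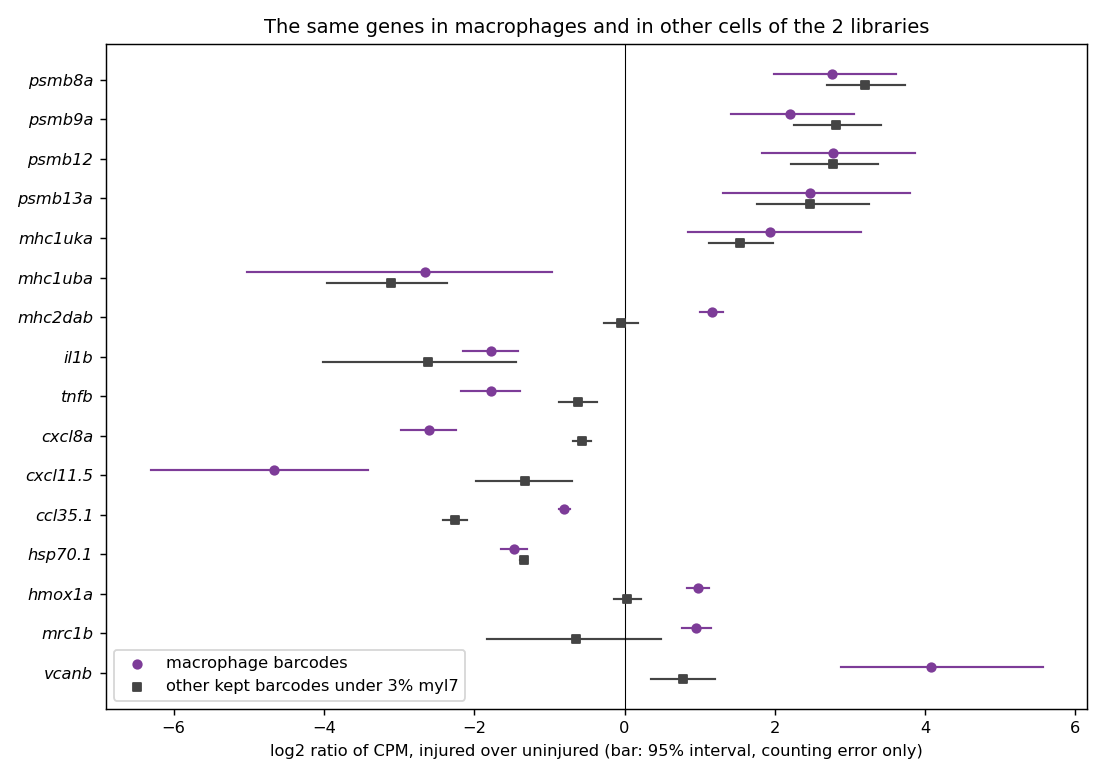
Log2 ratio of CPM, injured over uninjured, of 16 genes in macrophage barcodes (purple circles) and in the other kept barcodes under 3% myl7 of the same libraries (dark squares), with 95% counting intervals. The psmb genes, mhc1uka and mhc1uba lie alike in both, while the intervals of mhc2dab, hmox1a and vcanb in macrophages lie above those in the other barcodes.

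The lists of uptake, iron and haem, and lysosomal genes had medians between 0.08 and 0.23, few higher genes and no lower ones. The haem oxygenase gene hmox1a (ENSDARG00000027529), which breaks down haem from red cells, had 925 UMIs (2211 CPM) in 34 injured members and 670 UMIs (1125 CPM) in 45 uninjured members. It was 1.96-fold higher in injured macrophages (log2 ratio 0.97, 0.83 to 1.12), its medians were 278 CPM per injured and 222 CPM per uninjured member, and the call was lost without the members over 15000 UMIs. In the other barcodes under 3% myl7 its log2 ratio was 0.04 (-0.15 to 0.22). It was the 1 higher gene of 8 in the iron and haem list (beside 6.52% of all genes), and the ferritin genes fthl27 (0.25) and fth1a (0.06) did not pass. The haemoglobin transcript hbba1, a sign of free or engulfed red cell RNA, had 40 UMIs in 28 injured and 15 UMIs in 14 uninjured members (1.92), and it was higher in the injured library's other barcodes too (1.42).

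Of 15 measured uptake and scavenger genes 2 were higher (13.3%, beside 6.52% of all genes) and none lower, and the median was 0.20. The mannose receptor gene mrc1b (ENSDARG00000038822) had 515 UMIs (1231 CPM) in 40 injured members and 378 UMIs (635 CPM) in 58 uninjured members (log2 ratio 0.96, 0.76 to 1.15). A single injured member held 165 of its 515 UMIs, and without the top member of each library the ratio was 0.54 and below the threshold. The phosphatidylserine receptor gene havcr1 was counted as higher (0.59), a call lost under 12 alternative settings, and marco (0.28) did not pass. Of 26 lysosomal genes 3 were higher (beside the same 6.52%) and none lower, with a median of 0.08: grn2 with 994 UMIs in 12 injured and 226 UMIs in 14 uninjured members (2.65, 2.44 to 2.86), and the cathepsin genes ctsk (0.90) and ctsla (1.31). The abundant lysosomal genes ctsba (0.35), cd63 (0.10) and psap (-0.16) did not pass, nor did the lowest of the list, hexa (-1.42, -3.19 to 0.05), on 5 UMIs in injured and 19 in uninjured macrophages. Among 30 measured genes of the actin skeleton, which moves the cell and its phagocytic cups, 2 were higher (6.67%, near the 6.52% of all genes) and the median was 0.04.

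Of 17 measured matrix and wound genes 7 were higher (41.2%, beside 6.52% of all genes) and 2 lower (11.8%, beside 6.25%), and the median log2 ratio was 0.66 beside 0.02 over all genes. The clotting factor XIII gene f13a1b had 245 UMIs in 42 injured and 221 UMIs in 61 uninjured members (0.66), ctsk, which also cuts collagen, had 102 UMIs in 31 and 78 UMIs in 38 members, and the metalloprotease gene adam8a had 85 UMIs in 15 and 70 UMIs in 12 members (0.79). The adhesion protein gene tgfbi had 31 UMIs in 17 injured and 18 UMIs in 14 uninjured members (1.29, 0.41 to 2.22). The fibronectin gene fn1a had 35 UMIs in 14 injured and 24 UMIs in 10 uninjured members (1.05), fn1b had 28 UMIs in 4 and 4 UMIs in 1 member (3.32), and sparc had 15 UMIs in 5 and 8 UMIs in 2 members (1.42). Of the 2 lower genes sdc4, a heparan sulphate proteoglycan of the cell surface, had 744 UMIs in 45 injured and 1761 UMIs in 66 uninjured members (-0.73, -0.86 to -0.61), and f13a1a.1 had its 466 UMIs in a single uninjured member and none in injured ones. The calls of f13a1b, ctsk, adam8a, fn1a and sparc were each lost under at least 1 alternative setting. With members thinned to 1000 UMIs the list's median was 0.04. In the other kept barcodes under 3% myl7 all 7 higher genes leaned the same way. Their log2 ratios there were 3.04 (2.78 to 3.31) for fn1a, 1.92 for fn1b, 1.64 for adam8a, 0.71 for sparc and 0.65 for ctsk. For f13a1b (0.56, -0.19 to 1.33) and tgfbi (0.26, -0.94 to 1.48) the interval there included no change. The part of RNA from other cells in the macrophage counts was not tested. Fibroblast markers summed to 177 CPM in injured and 36.9 CPM in uninjured macrophages. Of their UMIs 45 of 74 injured and 15 of 22 uninjured ones lay in a single member, each with under 5 UMIs of the C1q genes. The part of fibroblast RNA in the matrix counts was not tested.

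The gene ranked first among the higher ones was a matrix gene that the list does not hold. vcanb (ENSDARG00000009401), which encodes a form of the proteoglycan versican, had 71 UMIs (170 CPM) in 8 injured members and 6 UMIs (10.1 CPM) in 2 uninjured members (log2 ratio 4.07, 2.88 to 5.57), and 27 of the 71 lay in a single member. Its log2 ratio was 0.77 (0.35 to 1.2) in the other barcodes under 3% myl7. inhbaa, which encodes a subunit of the growth factor activin, had 22 UMIs in 8 injured and 3 UMIs in 2 uninjured members (3.38, 1.65 to 5.77). Of 5 measured genes of the growth factor list 1 was higher and 1 lower, 20% each beside 6.52% and 6.25% of all genes. The higher one, pdgfba, had 24 UMIs in 15 injured and 16 UMIs in 16 uninjured members (1.09). Its call was lost without members over 15000 UMIs and without the top member of each library. The lower one, hbegfa, had 4 UMIs in 4 injured and 28 UMIs in 14 uninjured members (-2.30), but was at 0.74 with members taken from 3 UMIs of the rule's genes. Growth factor genes studied in heart regeneration, such as nrg1, vegfab and igf1, had no UMI in macrophages of either library.

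Of 25 measured transcription factor genes, some of which set macrophage identity, 3 were higher and 3 lower (12% each, beside 6.52% and 6.25% of all genes), and the median was -0.08. mafba (ENSDARG00000017121), a factor of macrophage differentiation, had 192 UMIs (459 CPM) in 34 injured members and 128 UMIs (215 CPM) in 48 uninjured members (log2 ratio 1.09, 0.76 to 1.43). Its paralog mafbb went the other way, with 51 UMIs in 19 injured and 139 UMIs in 36 uninjured members (-0.94, -1.43 to -0.46). irf8, which zebrafish need to form macrophages, had 51 UMIs in 20 injured and 121 UMIs in 41 uninjured members (-0.74, -1.24 to -0.25). The myeloid master gene spi1b (-0.23) and the most abundant factor, cebpb (-0.01), did not pass. The liver X receptor gene nr1h3 (1.07) and ikzf1 (1.51) were higher on 25 and 16 UMIs in injured macrophages, and atf3 was lower (-0.79). All 6 calls were lost under at least 1 alternative setting, that of mafba when members were thinned to 1000 UMIs. Of 10 measured genes known from tissue-resident macrophages 4 were higher (hmox1a, havcr1, f13a1b and mafba) and 1 lower (mafbb), 40% and 10% beside the same shares of all genes. The median was 0.35. These called genes were also counted in other lists above. Their calls were lost under 12 alternative settings for havcr1, 6 for f13a1b, 2 each for hmox1a and mafbb, and 1 for mafba. lyve1b and stab1 had no UMI, and timd4 had 0 UMIs in the injured and 5 in the uninjured members.

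Interferon response genes were mixed, with 4 of 14 higher and 3 lower (28.6% and 21.4%, beside 6.52% and 6.25% of all genes) and a median of 0.22. Of the 4 higher genes psmb8a and psmb9a are the MHC genes given above, and the others were stat2 (0.60) and ifi45 (1.2). The call of stat2 was lost under 6 alternative settings and that of ifi45 under 1. mxc, an antiviral GTPase gene, had 21 UMIs in 10 injured and 123 UMIs in 18 uninjured members (-2.04, -2.78 to -1.37), and irf7 (-0.90) and socs1a were lower too. Outside the list si:dkey-188i13.6, named ifi27.3 in the gene-name table, had 76 UMIs in 25 injured and 16 UMIs in 10 uninjured members (2.76, 1.97 to 3.63), and si:dkey-79f11.10, named ifi44a8 there, had 14 UMIs in 7 injured and 162 UMIs in 9 uninjured members (-3.02, -3.93 to -2.24). Most of these genes moved the same way in the other kept barcodes under 3% myl7. The log2 ratio in those barcodes was 2.39 for ifi45, 1.43 for stat2, 1.8 for si:dkey-188i13.6, -3.62 (-4.97 to -2.51) for mxc and -3.26 for si:dkey-79f11.10. The last 2 ratios rested on few barcodes. There mxc had 7 UMIs in 7 injured and 82 UMIs in 15 uninjured ones, and si:dkey-79f11.10 had 6 UMIs in 2 and 55 UMIs in 7. For irf7 (-0.16, -0.60 to 0.28) and socs1a (0.21, -0.09 to 0.51) the interval in those barcodes included no change.

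Lipid genes rested on few cells. Of 11 measured genes 4 were lower and 2 higher (36.4% and 18.2%, beside 6.25% and 6.52% of all genes), and the median was -0.55. ch25h, which makes 25-hydroxycholesterol, was the best spread of the lower ones, with 59 UMIs in 13 injured and 182 UMIs in 35 uninjured members (-1.12, -1.57 to -0.69). The fatty acid binding gene fabp11a had 6 UMIs in 5 injured and 117 UMIs in 8 uninjured members (-3.78), but 110 of the 117 lay in a single member. fabp3 was lower (-0.85) and turned to 0.14 without the members over 15000 UMIs, plin2 was lower on 3 and 30 UMIs, and lpl and nr1h3 were higher on 18 and 25 UMIs in injured macrophages. Of 7 measured cell cycle genes none was higher and 1 was lower (14.3%, beside 6.25% of all genes). The lower one was dut, with 2 UMIs in the injured and 19 in the uninjured members, and pcna had 15 and 29 UMIs (-0.44).

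**Figure D4:**
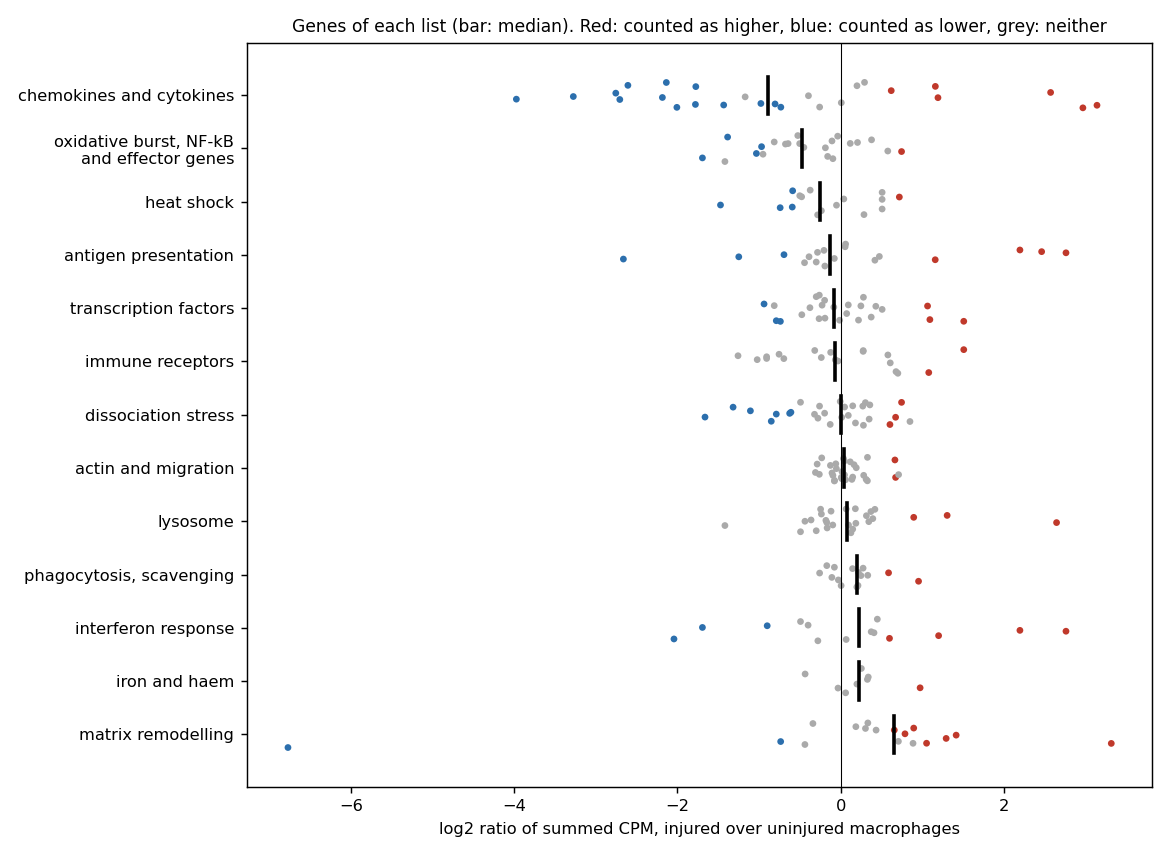
Log2 ratio of summed CPM, injured over uninjured macrophages, of the measured genes of 13 lists. Each point is a gene, red where counted as higher, blue where counted as lower and grey otherwise, and the black bar is the list's median. The cytokine list has a median of -0.89 with 14 lower genes, the matrix list a median of 0.66 with 7 higher genes, and the medians of the lysosome, actin and uptake lists lie near 0.

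Heat shock transcripts were not equal in the 2 libraries, while genes known to respond to tissue dissociation were close in sum. Heat shock genes, chaperones made under heat and other stress, summed to 22824 CPM in injured and 30831 CPM in uninjured macrophages, and of 16 measured genes 4 were lower and 1 higher (25% and 6.25%, beside 6.25% and 6.52% of all genes). hsp70.1 had 349 UMIs in 31 injured and 1377 UMIs in 55 uninjured members (log2 ratio -1.47, -1.64 to -1.30). It was lower by a like amount in the other barcodes under 3% myl7 (-1.34, -1.39 to -1.30). hsp70.2 (-0.74), hsp90aa1.2 (-0.59) and hspe1 (-0.59) were lower, and hspa5, a chaperone of the endoplasmic reticulum, was higher (0.72). These calls were lost under 7 alternative settings for hspe1, 6 for hspa5, 4 for hsp90aa1.2 and 1 for hsp70.2. Genes known to respond to tissue dissociation summed to 16842 CPM in injured and 17157 CPM in uninjured macrophages, with 3 of 28 higher and 7 lower (10.7% and 25%, beside 6.52% and 6.25%) and a median of 0.00. Among these jun (-0.62), gadd45ba (-1.10) and atf3 were lower and socs3a and fosb (0.60) higher, while fosab (-0.28) and junba (0.05) did not pass. The call of fosb was lost under 8 alternative settings, that of atf3 under 3, that of jun under 2, and those of gadd45ba and socs3a under 1 each. The source of the heat shock difference was not tested, nor was the part of handling in the lower cytokine transcripts.

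Heart muscle transcripts made up much of the lower end of the ranking. Cardiomyocyte markers summed to 380 CPM in injured and 2648 CPM in uninjured macrophages, and to 367 and 645 CPM without the top member of each library. myl7, which the rule limits, had 47 UMIs in 33 injured and 703 UMIs in 64 uninjured members, of which 565 lay in a single member. cmlc1, actc1a and ckma, also muscle genes, had 298 of 369, 122 of 136 and 86 of 112 uninjured UMIs in a single member. Mixed barcodes, with at least 3 genes of another cell type's list or at least 5% of UMIs from cardiomyocyte or red cell genes, numbered 4 of 57 injured and 8 of 78 uninjured members. Without them il1b (-1.72), tnfb (-1.83), cxcl8a (-2.48), hmox1a (0.67), mafba (1.13) and mhc2dab (1.13) kept their calls. Doublets were not removed in another way.

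Among the remaining genes at the ends of the ranking, si:ch211-71m22.1 had 23 UMIs in 12 injured and 2 UMIs in the uninjured members (log2 ratio 4.03), CABZ01046432.1 had 31 UMIs in 16 injured members and 6 UMIs in the uninjured ones (2.88), and si:ch211-5k11.8 had 28 UMIs in 20 injured members and 6 UMIs in the uninjured ones (2.73). In the other barcodes under 3% myl7 si:ch211-5k11.8 was far more abundant, at 9313 CPM in the injured and 2909 CPM in the uninjured library (1.68), as was the haemoglobin gene hbba1, at 13149 and 4914 CPM (1.42). The part of red cell RNA in its macrophage counts was not tested. For si:ch211-9d9.1, 52 of 68 injured UMIs lay in a single member, against 17 UMIs in uninjured macrophages. At the lower end CU459094.3 had 7 UMIs in 4 injured members and 174 UMIs in the uninjured ones (-4.13), and CR759843.2 had 2 UMIs in 1 injured member and 64 UMIs in the uninjured ones (-4.49). The glycolysis gene gapdh had 36 UMIs in 22 injured and 287 UMIs in 44 uninjured members (-2.49), with 206 of the uninjured UMIs in a single member and no call without mixed barcodes. It was the 1 gene of 17 in the glycolysis list that passed (5.88%, near the 6.25% of all genes counted as lower). Ribosomal protein genes, with 3 of 80 higher (3.75%, beside 6.52% of all genes) and a median of 0.04, and the 13 mitochondrial genes, none of which passed (0.12), were level.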

How the data were processed

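The authors deposited whole-number UMI counts for 25110 features in each barcode. Per the file headers, Cell Ranger 4.0.0 wrote them. The submitters' processing notes name the build GRCz11 and, without a step, Seurat. Every deposited barcode had at least 500 UMIs. Where several IDs carry the same symbol (518 of 24438 symbols) their counts were added.

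UMIs were summed over the macrophages of each library and scaled to their total (CPM). A log2 ratio is injured over uninjured, with an exact conditional binomial 95% interval, and a gene with a count of 0 in a library was set against a floor of 3 UMIs over that library's members. Genes needed 20 UMIs over both libraries. No test between groups was made. The text names the 12 highest and 12 lowest genes, ranked by the bound of the interval nearest to no change, with UMIs in at least 5 members of the higher library and without mitochondrial, ribosomal protein and haemoglobin genes, known by their symbols. It also names the 10 genes highest in macrophages over other barcodes, the genes of the rule, the reporters, and from each list the members with most UMIs and those counted as higher or lower. Genes named outside this are given as counts of 0 or were chosen after their values were seen. The members and the 31 gene lists (689 of 740 symbols found) were chosen with earlier results of these data known. Names and neighbours came from a gene-name table (38 of 41 IDs matched) and a RefSeq table of GRCz12tu. The ratio step was tested on simulated counts. Alternatives changed the rule's limits, the depth, the scaling (TMM in edgeR 4.0.16, median of ratios in DESeq2 1.42.0), the gene minimum, the fold and the weight of cells. Python 3.11.15, numpy 2.4.6, scipy 1.17.1 and pandas 2.3.3 were used.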

Additional observations from a re-analysis of the deposited data

How the results depend on the processing

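Of 384 values that 25 results (the 2 shares, the numbers of genes and the list medians) took under 16 alternative settings, 362 kept their direction and size within the limits set for them. The macrophage shares stayed between 3.45% and 4.31% in the injured and between 3.48% and 4.18% in the uninjured library. The number of higher genes was 370 with at least 3 UMIs of the rule's genes, 26 with members thinned to 1000 UMIs, 628 with the mean of CPM per cell, 129 with a minimum of 50 UMIs, 372 with no minimum and 148 at a 2-fold limit. The number of lower genes was 65 when thinned, 750 with the mean of CPM per cell, 141 at 50 UMIs and 145 at 2-fold. Thinning leaves fewer UMIs and so fewer genes to count, and the mean of CPM per cell has no counting interval. Thinned list medians were -2.18 for cytokines and chemokines, 0.044 for matrix, -1.01 for oxidative burst and effector genes, -1.23 for interferon response and 0.084 for ribosomal protein genes. The ribosomal median was also 0.14 without members over 15000 UMIs, -0.025 with TMM, -0.058 with median of ratios and 0.11 with the mean of CPM per cell. The mitochondrial median was 0.30 at a mitochondrial limit of 10% and 0.028 with median of ratios, and the actin median was -0.059 at 3 UMIs of the rule's genes. For the changes in list medians the cause was not tested. Single genes turned direction: anxa2a (0.85), hbegfa (0.74) and krt15 (2.53) at 3 UMIs of the rule's genes, spock3 at 10 UMIs (-3.19) and with 5 UMIs of the C1q genes alone (-2.96), anxa2a (0.93) and fabp3 (0.14) without members over 15000 UMIs, and aldoab (0.74), egr3 (-0.026), myca (0.61) and tpp1 (-1.12) with the mean of CPM per cell. The settings on C1q genes alone, on 3 of 12 other markers and on members over 15000 UMIs were chosen after seeing the data. il1b, tnfb, cxcl8a, csf3b, mhc2dab and the 4 psmb genes stayed past the rule under each setting that gave them a value; their log2 ratios ranged from -2.57 to -1.69 for il1b, -2.48 to -1.75 for tnfb, -3.65 to -2.43 for cxcl8a and 0.85 to 1.24 for mhc2dab. At this depth a gene under 20 UMIs over both libraries could not be read. No paired analysis was possible because each group has 1 library.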
